A study of Mus musculus with 4 samples.

Results

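The cells described here were lung smooth muscle cells marked by Hpse2, Lrrtm3, Ctnna3, Adam33 and Ntrk3, 2635 of the 32121 cells in the series. They were chosen on their own transcript counts. Among the 30860 cells with 200 to 7500 genes and at most 15% mitochondrial UMIs (unique molecular identifiers, each counting 1 captured RNA), 6586 had at least 3 UMIs of Myh11, the smooth muscle myosin heavy chain, and none of Ptprc, Cdh5 or Epcam, which mark immune, endothelial and epithelial cells. Each of these was given 3 sums. The Timp4 sum added the UMIs of Timp4, Actc1, P2rx1, Sncg and Tcap, the Erbb4 sum those of Erbb4, Sost, Mylk4, Rcan2 and Ncam1, and the Hpse2 sum those of Hpse2, Lrrtm3, Ctnna3, Adam33 and Ntrk3. A cell was a member if its Hpse2 sum was at least 3 and larger than both others. The Timp4 sum led in 2686 cells, called the Timp4 set from here on, and the Erbb4 sum in 660 cells, called the Erbb4 set. The remaining 605 had no leading sum or too few UMIs. Among other cells with under 3 Myh11 UMIs, 203 passed a pericyte gate on Cox4i2, Higd1b and Ndufa4l2. Another 8020 passed a fibroblast gate on Pdgfra, Col13a1 and Col14a1.

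The study dissociated lungs of Tubb3-/- mice and wild-type littermate controls, 2 mice of each genotype, 14 days after intratracheal bleomycin at 0.8 U/kg, which injures the lung and leads to fibrosis. Tubb3 encodes the neuronal beta-III tubulin that the antibody Tuj1 recognises. Each mouse gave 1 library of whole lung cells, live-sorted after erythrocyte depletion, and 1 mural cell-enriched library, and the 4 libraries of each kind were run as 1 pool with a hashtag oligonucleotide per mouse. Adult mice of both sexes were used.

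Tubb3-/- mice carried a Cre knock-in at the Tubb3 translation start on both alleles, so the loss was constitutive and every Tubb3-/- mouse also carried Cre, which the controls did not. All 4 mice received bleomycin, and no untreated lung was analysed here. For the mural cell-enriched libraries, cells carrying CD31, CD45, EpCAM or TER-119 were removed, MCAM+ PDGFRα- cells and MCAM- cells were sorted, and both fractions were mixed in equal parts. The sort therefore sets how many of each cell type were present. The members came mostly from that pool, with 662 and 414 cells from the 2 WT mice and 705 and 667 from the 2 Tubb3-/- mice, against 55, 35, 51 and 46 in the whole-cell libraries. Summed over both libraries, the members of a mouse held between 5233778 and 11135580 UMIs. The median member had 10790 and 9915 UMIs in the WT mice against 12932 and 13053 in the Tubb3-/- mice. Between the 2 pools, 59 cell barcodes were shared, 5 of them in members, and no barcode was shared within a pool. Haemoglobin UMIs were found in 474 members (18.0%), and Scrublet, which scores likely doublets, marked 118 (4.48%).

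Lung smooth muscle wraps the airways and the blood vessels, and pericytes sit on the smallest vessels. Its contraction is driven by calcium entry and by myosin moving along smooth muscle actin (Acta2), and is opposed by nitric oxide acting through soluble guanylate cyclase and cyclic GMP-dependent kinase. Airway smooth muscle is known for Hhip, which binds hedgehog ligands, and Lgr6, whereas vascular smooth muscle and pericytes are known for the receptor Notch3. The marker genes of these cells act at the cell surface or in adhesion. Hpse2 encodes heparanase-2, a secreted protein that binds heparan sulfate without cleaving it. Lrrtm3 encodes a transmembrane protein of synapses. Ctnna3 encodes alpha-T-catenin, which ties cadherins to actin. Adam33 encodes a membrane metalloprotease, and Ntrk3 the neurotrophin-3 receptor TrkC.

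The promoter windows of the genes that name the set are shown because the members share their transcripts. Each is the 250 bases upstream of the RefSeq start on mouse build GRCm38.p6, written 5′ to 3′ on the strand of the gene, with GC boxes (GGGCGG or CCGCCC) in capitals. The Hpse2 window is chr19:43388356-43388605 (minus strand), that of Lrrtm3 chr10:64090256-64090505 (minus strand), and that of the first Ctnna3 start chr10:63429848-63430097 (plus strand). Adam33 and Ntrk3 are named only.
Hpse2: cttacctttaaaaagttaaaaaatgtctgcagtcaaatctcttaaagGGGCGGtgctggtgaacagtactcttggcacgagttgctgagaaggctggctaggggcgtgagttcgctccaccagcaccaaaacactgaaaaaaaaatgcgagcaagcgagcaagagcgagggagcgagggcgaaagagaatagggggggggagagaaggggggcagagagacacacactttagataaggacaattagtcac
Lrrtm3: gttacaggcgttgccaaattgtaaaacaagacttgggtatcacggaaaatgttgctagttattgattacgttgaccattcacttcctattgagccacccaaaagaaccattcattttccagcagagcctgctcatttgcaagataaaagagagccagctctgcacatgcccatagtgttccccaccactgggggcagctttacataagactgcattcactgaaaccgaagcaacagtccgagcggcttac
Ctnna3: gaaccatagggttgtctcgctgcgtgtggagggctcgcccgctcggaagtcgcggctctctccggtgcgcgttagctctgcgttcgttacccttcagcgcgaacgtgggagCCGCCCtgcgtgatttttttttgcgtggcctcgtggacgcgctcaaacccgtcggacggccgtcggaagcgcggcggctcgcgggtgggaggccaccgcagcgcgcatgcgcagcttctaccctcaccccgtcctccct

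The Hpse2 and Ctnna3 windows each held 1 GC box, a motif found on either strand in 32.7% of the 32851 promoter windows of the same length. The Lrrtm3 window held none, and had 2 E boxes (CANNTG), a motif in 66.2% of all windows. None of the 3 windows held the CArG box of serum response factor, present in 1.47% of all windows, nor CATTCC (12.6%) or TATAAA (12.4%). Windows of later Ctnna3 starts, not shown, differed. That at chr10:63457261-63457510 held 1 CATTCC, and that at chr10:63820805-63821054 held 1 TATAAA and 2 E boxes. The windows were 50% (Hpse2), 46% (Lrrtm3) and 67.6% (Ctnna3) G or C, against a median of 52.4% over all windows. Lrrtm3 (chromosome 10, 63928472 to 64090277, minus strand) lies inside Ctnna3 (63430098 to 65003667, plus strand), and whether the counting used strand is not given in the sources used here, so reads of the 2 genes may not be told apart. Hpse2 spans 602 kb of chromosome 19, Ntrk3 562 kb of chromosome 7 and Ctnna3 1570 kb, while Adam33 on chromosome 2 spans 13.2 kb.

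The Hpse2 sum had a median of 25 UMIs over the members, with quartiles of 13 and 43 and a range of 3 to 353. All 5 genes were detected in 796 members (30.2%) and a single one in 137 (5.2%). The sum was at least double both other sums in 1821 members (69.1%), and it led by only 1 or 2 UMIs in 205 (7.78%). Just inside the threshold, 60 members (2.28%) had a sum of exactly 3, with Hpse2 at a mean of 66.7 CPM over the mice, which is UMIs per 1000000 gene UMIs of the cells. Just outside it, 41 cells had a leading sum of 2, with Hpse2 at 24.5 CPM. The sums overlapped between sets. Of the gated cells, 5582 reached an Hpse2 sum of 3, and 2591 of them had a Timp4 sum at least as large.

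The levels of the genes that defined the members differed more between the sets than between the mice. Levels are given first as CPM over all cells of a set in a mouse, in the order WT mice 1 and 2, then Tubb3-/- mice 1 and 2. Hpse2 was at 522, 739.6, 559.7 and 707 CPM in the members. It stood at 201 to 216 CPM in the Timp4 set, 8.80 to 13.2 CPM in the Erbb4 set and a mean of 40.1 CPM in pericytes. Of the 5 genes it was the one for which the Erbb4 set came furthest below the members. Ctnna3 was at 1309, 1283, 1018 and 953 CPM in the members, against 503 to 586 CPM in the Timp4 set and 343 to 481 CPM in the Erbb4 set. Ntrk3 was at 443, 399, 326 and 391 CPM, against 222 to 287 CPM and 132 to 175 CPM. Adam33 was at 196, 239.6, 138 and 145 CPM, and Lrrtm3 at 129, 121, 91.9 and 92.7 CPM. For Ctnna3, Ntrk3, Adam33 and Lrrtm3 both Tubb3-/- mice lay below both WT mice, whereas for Hpse2 the genotypes overlapped. Of all genes tested by genotype, 46.1% did not overlap in either direction, so nothing is read from this. These levels follow from the rule and were not tested.

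**Figure D1:**
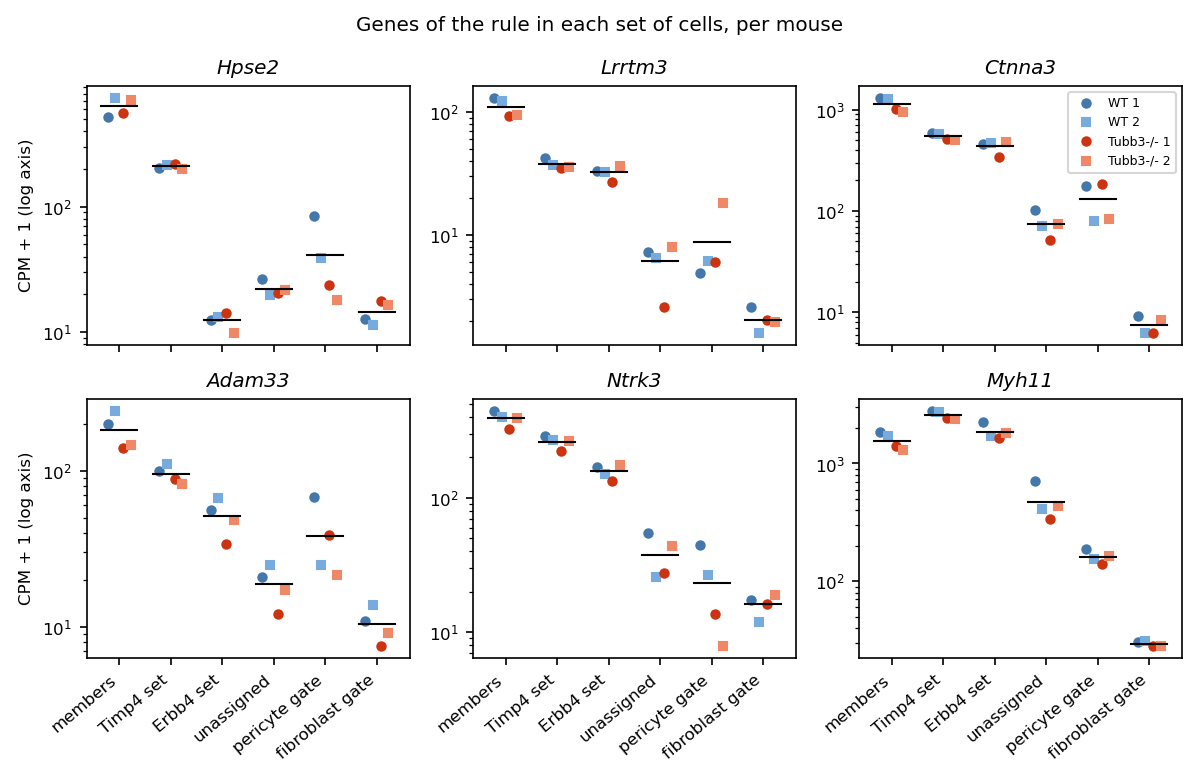
Levels of the 5 genes that chose the members and of Myh11, as CPM + 1 on a log axis, in the members, the Timp4 and Erbb4 sets, the unassigned gated cells and the pericyte and fibroblast gates, with 1 point per mouse (n = 4) and a line at the mean. Hpse2 was at 522 to 739.6 CPM in the members and at 8.80 to 13.2 CPM in the Erbb4 set, while Myh11 was lower in the members than in the Timp4 set in every mouse.

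A UMI of Hpse2 was found in 71.7% of the members, in 52.5% of the Timp4 set and in 8.18% of the Erbb4 set. Immune cells, which should lack these smooth muscle transcripts, gave a background of 1.29%. Their median was 7828 UMIs per cell, against 11723 in the members. They were taken with a Ptprc UMI and without any UMI of Myh11, Cdh5 or Epcam. Cells carrying stray Myh11 RNA were thus left out, so the background may be higher than given. Of the immune cells 5162 of 5329 came from the whole-cell libraries, so this is mostly the background of that pool. Ntrk3 was detected in 83.6% of the members, Ctnna3 in 81.0%, Adam33 in 74.0% and Lrrtm3 in 51.7%, with immune cells at 4.88%, 2.08%, 4.15% and 0.169%. When every cell was thinned to 5000 UMIs, leaving out 269 shallower members, Hpse2 was detected in 63.1% of the members, Ctnna3 in 74.5% and Lrrtm3 in 30.7%.

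The smooth muscle label was checked against its markers. The 21 contractile genes of a fixed list, which does not hold Myh11, summed to 26845 to 32510.9 CPM in the members. The sum was 8212 to 12907 CPM in pericytes and 5007 to 6532 CPM in the fibroblast gate, so the ranges over mice did not overlap. Both gates took only cells with under 3 Myh11 UMIs, so the contrast with them is partly set by the rule. In the unassigned cells, which passed the same Myh11 gate as the members, the sum was 10303 to 15582.5 CPM. Des, the intermediate filament desmin, was at 798, 767, 856 and 842 CPM in the members and 61.5 to 110 CPM in the fibroblast gate. Markers of other mesenchymal cells were also present. At least 3 UMIs of the pericyte gate genes were in 620 members (23.5%), and at least 3 of the fibroblast gate genes in 903 (34.3%). The 7 pericyte markers summed to 985 to 1506 CPM, against 8029 to 9920 CPM in pericytes. The 12 fibroblast markers summed to 6659 to 10144 CPM, against 13932 to 19113 CPM in the fibroblast gate. The 9 cardiac muscle markers summed to 200.3 to 253 CPM, against 227 to 401 CPM in the Timp4 set and 17.1 to 55.3 CPM in pericytes, with Nkx2-5 alone at 0. The 7 epithelial markers summed to 325 to 864 CPM, against 301 to 457 CPM in the Timp4 set and 490.0 to 627 CPM in pericytes, and the 5 endothelial markers to at most 33.8 CPM.

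Contractile genes were lower in the members than in the Timp4 set, and pericyte genes were higher. Because the rule itself contrasted these sets, the following levels are a description with no test. A gene counted as higher or lower when its level differed at least 1.5-fold in the same direction in all 4 mice, among genes reaching a mean level of 10 CPM. Against the Timp4 set, 5.72% of 9144 genes were higher and 1.56% lower. Against the Erbb4 set, 4.08% of 9289 genes were higher and 2.16% lower. Nothing is read from list counts against these shares.

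Acta2 was at 7949, 6209.7, 6479.9 and 5962 CPM in the members and at 15510.3, 14555, 14145 and 13354 CPM in the Timp4 set. The median log2 ratio over the mice, on the scale of CPM + 1, was −1.14. The Erbb4 set lay between, at a mean of 9945 CPM. Of the 21 contractile genes, 14 were lower than in the Timp4 set and none higher, with a list median of −0.87 against 0.09 over all genes measured. Tagln, an actin-bundling protein of smooth muscle, had a mean of 5157 CPM against 9594 CPM. Cnn1, the calponin that restrains myosin, was at 585, 381, 501 and 402 CPM in the members and 1059 to 1367 CPM in the Timp4 set, and Hspb6, a small heat shock protein of relaxing muscle, had a mean of 60.9 CPM against 188 CPM. Against the Erbb4 set, 2 of the 21 were lower and 1 higher, with a list median of −0.21. Mylk, the kinase that starts contraction by phosphorylating myosin light chain, was nearer in all 3 sets, at means of 1034 CPM in the members, 1216 CPM in the Timp4 set and 749 CPM in the Erbb4 set.

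Of the 7 pericyte markers, 5 were higher than in the Timp4 set and 6 higher than in the Erbb4 set, with list medians of 0.86 and 2.39. Ndufa4l2, a mitochondrial protein of pericytes, was at 101, 118, 121 and 129 CPM in the members and a mean of 10.0 CPM in the Erbb4 set. Higd1b was at 27.3, 41.7, 43.5 and 45.7 CPM, against 2.11 to 10.1 CPM in the Timp4 set. Trpc6, a cation channel of mural cells, was at 59.0, 160.5, 94.7 and 109 CPM in the members and 6.89 to 24.3 CPM in the Timp4 set. Kcnk3, the TASK-1 potassium channel, and Postn were the markers not called higher than in the Timp4 set, with Kcnk3 at a mean of 144 CPM in the members against 168 CPM there and 40.8 CPM in the Erbb4 set. Notch3 was at 266, 326, 280.5 and 284 CPM in the members and a mean of 48.7 CPM in the Erbb4 set, and of the 12 vascular smooth muscle markers 10 could be measured, none of them higher or lower than in the Timp4 set. Of the 8 airway smooth muscle markers, 7 could be measured against the Timp4 set, with 1 higher, 2 lower and a median of −0.46, and 6 against the Erbb4 set, with 3 higher, none lower and a median of 0.81. The airway markers summed to 1911 to 2276 CPM in the members, 3326 to 3663 CPM in the Timp4 set and 1009.7 to 1417 CPM in the Erbb4 set.

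**Figure D2:**
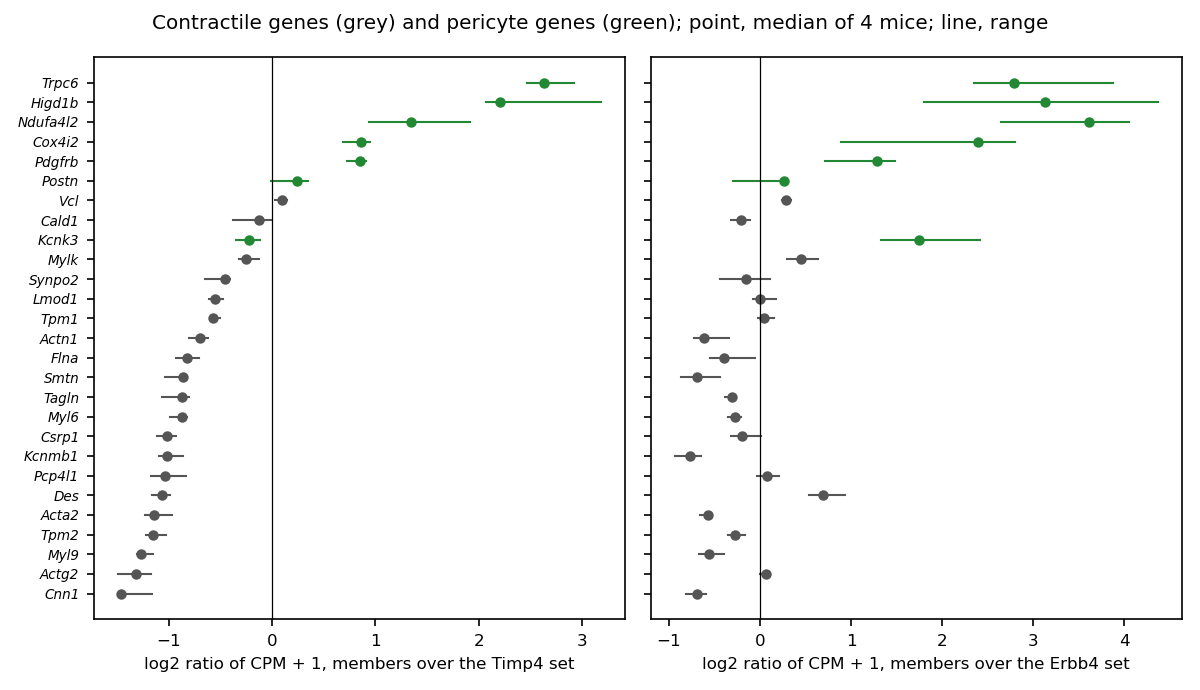
Log2 ratio of CPM + 1 in the members over the Timp4 set and over the Erbb4 set for genes of the contractile (grey) and pericyte (green) lists. Points are the median of 4 mice and lines run from the lowest to the highest mouse. Contractile genes lie mostly to the left of 0 against the Timp4 set, with Acta2 at −1.14, and pericyte genes mostly to the right.

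The calcium channel gene Cacna1c and some genes of the relaxing pathway were among those higher in the members. Cacna1c, the pore of the L-type calcium channel, was at 1277, 1672, 1315 and 1409.7 CPM in the members, a mean of 644 CPM in the Timp4 set and 349 CPM in the Erbb4 set. Of the ion channel and calcium handling list, 3 of 25 measured genes were higher and 2 lower than in the Timp4 set. The list median was 0.04 against 0.09 over all genes measured, so the list as a whole was not shifted towards the members. Of 14 genes of cyclic nucleotide signalling, 4 were higher than in the Timp4 set and 7 higher than in the Erbb4 set, with none lower. Among them, Prkg1, the cyclic GMP-dependent kinase, had a mean of 1863 CPM against 950.0 and 976 CPM. Gucy1a2, a subunit of soluble guanylate cyclase, had a mean of 86.6 CPM against 29.3 and 25.3 CPM. Its other subunit genes Gucy1a1 and Gucy1b1 are in the vascular list, where no gene measured was higher than in the Timp4 set. Pde10a, which breaks down cyclic nucleotides, had a mean of 133 CPM against 27.9 CPM in the Timp4 set. Of the endothelin receptors, Ednra had means of 193, 112 and 66.1 CPM in the members, the Timp4 set and the Erbb4 set, and Ednrb 78.7, 126 and 20.5 CPM.

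The partners of the named genes were mostly at like levels in all 3 sets. Among 19 genes of heparan sulfate synthesis and its core proteins, the pathway of Hpse2, none was higher or lower than in the Timp4 set, and 1 was higher and 3 lower than in the Erbb4 set of 20 measured. Of 10 cadherins and catenins, 2 were higher than in the Timp4 set. They were Cdh2, or N-cadherin, with a mean of 26.8 CPM against 7.69 CPM, and Ctnna2, the neural alpha-catenin, at 11.8 CPM against 2.01 CPM. Of 8 genes of the neurotrophin pathway, 2 were higher against each set, Sorcs2, a sorting receptor of neurotrophin signalling, among them. Ntf3, the ligand of Ntrk3, had a mean of 65.1 CPM in the members and 80.4 CPM in the Timp4 set. Of 7 genes of synaptic adhesion measured against the Timp4 set, 3 were higher, among them Nlgn1, a postsynaptic neuroligin, at a mean of 60.0 CPM against 24.0 CPM.

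The 10 genes with the largest ratio over the Timp4 set, by the naming rule, included Col8a1, Pappa2, Egfem1, Csmd1, Trpc6, Cacna2d3, Pde10a, Inpp4b and Grin2a, with median log2 ratios from 3.01 (Col8a1) to 1.84 (Grin2a). Col8a1, a short-chain collagen of vessel walls, had a mean of 184 CPM against 28.3 CPM. Pappa2, a protease that cleaves insulin-like growth factor binding proteins, had a mean of 179 CPM against 19.2 CPM. Csmd1, a large membrane protein with complement-control repeats, was at 682, 850.2, 1387 and 1416 CPM in the members and 62.6, 116, 235 and 225 CPM in the Timp4 set. In both sets the 2 WT mice lay below the 2 Tubb3-/- mice. The lowest ratios belonged to Hspb6 (−1.68), Ccn3 (−1.49), Itih4 (−1.48), Fabp4 (−1.48) and Cnn1 (−1.46).

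Against the Erbb4 set, the 10 highest were Egfem1 (4.57), Pappa2 (3.79), Ndufa4l2 (3.61), Ccl19 (3.07, listed as ENSMUSG00000071005), Hhip (3.05), Cdh4 (2.97), Pgf (2.82), Trpc6 (2.79), Slc11a1 (2.74) and Notch3 (2.66). Pgf encodes placental growth factor, and Cdh4 the retinal cadherin. The 5 lowest included Uchl1 (−2.79), Rgs7 (−2.73), Cthrc1 (−2.40) and 1190005I06Rik (−2.25). Cthrc1, a secreted protein of activated fibroblasts, had a mean of 46.8 CPM in the members against 299 CPM in the Erbb4 set.

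Long genes made up a larger share of the genes higher in the members than of all genes. Of 522 genes higher than in the Timp4 set with a known length, 188 (36.0%) spanned more than 200 kb, against 6.77% of all genes measured and 0 of the 143 lower genes. Genes of over 200 kb took 9.70 to 10.9% of the UMIs in the members, 6.79 to 7.50% in the Timp4 set and 7.62 to 8.96% in the Erbb4 set. The nuclear RNA Malat1 took 3.28 to 3.47% in the members, 1.49 to 1.79% in the Timp4 set and 3.49 to 4.31% in pericytes. Mitochondrial UMIs summed per mouse did not follow this order, at 4.14 to 4.62% in the members and 4.01 to 4.66% in the Timp4 set. Per cell, the median mitochondrial share was 4.09% in the members and 4.37% in the Timp4 set. The upper quartile, however, was higher in the members, at 6.71% against 5.48%. The lower quartile of UMIs per cell was 7487.5 in the members and 9056.5 in the Timp4 set. Whether introns were counted is not given in the sources used here. The part that long or nuclear transcripts, shallow cells or cells rich in mitochondrial UMIs play in the level differences was not tested.

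Among the genes whose levels followed Hpse2 most closely were Rgs7bp (Pearson r = 0.970), F3 (0.967), Adcy3 (0.960), Dab2ip (0.958), and Arhgef7 (0.956). The correlations were taken over 16 points of log2 CPM, which are the 4 mice in each of 4 groups of gated cells, and 8967 genes were compared. Points of the same mouse share its libraries, and the r values are a description. F3 encodes tissue factor, which starts blood clotting.

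The members divided by Hhip, a gene the rule did not use. It was chosen for this split after the data were seen. Hhip UMIs were absent from 1776 members, while 328 had 1 or 2, 72 had 3 to 5 and 459 had 6 or more. Of all members, 531 (20.2%) had at least 3. The same was true of 10.7% of the Timp4 set, 8.64% of the Erbb4 set, 0.985% of pericytes, 2.93% of immune cells and 32.7% of the fibroblast gate. Because most members came from the mural cell-enriched pool, the background there bears on them most. That pool's immune cells too were taken without a Myh11 UMI, so this background may be low. At least 3 Hhip UMIs were in 8.38% of its 167 immune cells, against 19.9% of its members and 33.3% of its fibroblast gate. The members with at least 3 had a median of 17954 UMIs, against 10517.5 in the others, and 56 of them were marked by Scrublet. With every cell thinned to 5000 UMIs, 16.6% of the members still had at least 3 Hhip UMIs, against 12.1% of the fibroblast gate. The Timp4 set was then at 6.59%, the Erbb4 set at 2.48%, immune cells at 1.24% and pericytes at 0.690%. At equal depth the members thus stood above the fibroblast gate, the reverse of the order without thinning.

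Notch3 went the other way. It was at 51.7, 62.2, 29.9 and 33.4 CPM in members with at least 3 Hhip UMIs, and at 319, 405, 419.6 and 408 CPM in those with fewer. A UMI of Notch3 was found in 25.6% of the former and 86.8% of the latter, although the former were the deeper cells. Hpse2 did not separate the 2 kinds, at 692, 743, 514 and 678 CPM against 480.1, 739, 585 and 722 CPM. Ctnna3 did, at 277, 396, 128 and 127 CPM in the Hhip-rich members and 1566, 1548, 1512 and 1362 CPM in the Hhip-poor ones. Lrrtm3, which lies within Ctnna3, had a mean of 20.0 CPM against 143 CPM.

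Pappa2, Igf1, Wnt5a and Tgfbi were higher in the Hhip-rich members, and Notch3, Col8a1 and pericyte genes lower. Pappa2 was at 389, 254, 778 and 749.7 CPM in them and at 4.47, 8.44, 27.7 and 36.2 CPM in the Hhip-poor members. Igf1, insulin-like growth factor 1, was at 579.7, 487, 1176 and 1211 CPM against 83.1, 88.1, 112 and 150.4 CPM. In both genes the 2 Tubb3-/- mice were above the 2 WT mice in both kinds of member. The Wnt ligand Wnt5a had a mean of 302 CPM against 18.4 CPM, and the matrix protein Tgfbi 311 CPM against 15.6 CPM. In the Hhip-poor members, the pericyte genes Ndufa4l2 (159 CPM against 16.4 CPM), Higd1b (54.1 against 5.38 CPM) and Trpc6 (139 against 25.8 CPM) were higher, as were the transcription factors Ebf1 (736 against 94.1 CPM) and Epas1 (365 against 52.4 CPM), and Col8a1 (247 against 32.4 CPM). Acta2 had a mean of 7752 CPM in the Hhip-poor members and 3754 CPM in the Hhip-rich ones. The fibroblast receptor gene Pdgfra had a mean of 142 CPM in the Hhip-rich members and 70.1 CPM in the others. These levels are a description of the split, with no test.

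**Figure D3:**
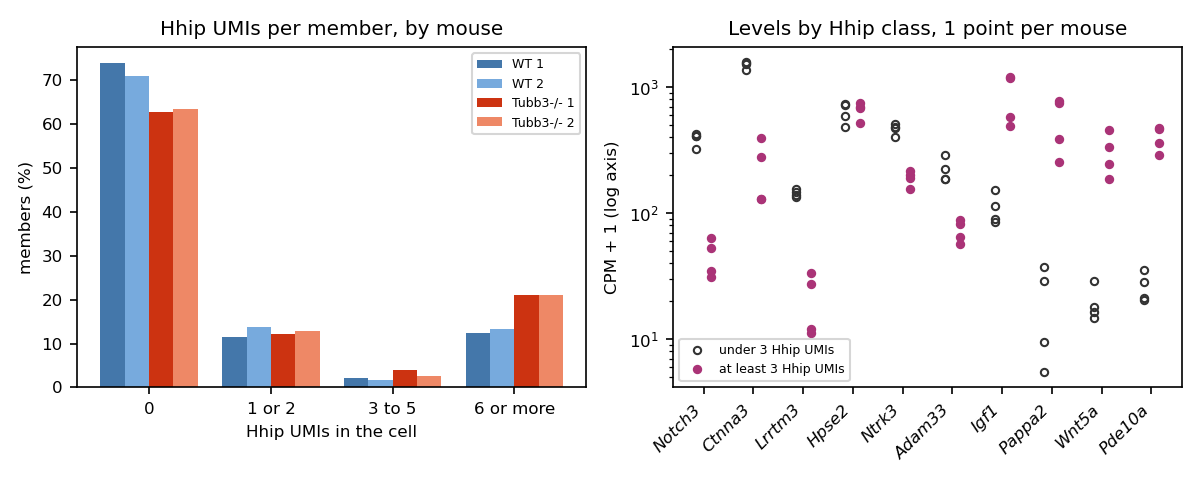
Left, the percentage of members in each mouse with 0, 1 or 2, 3 to 5, and 6 or more Hhip UMIs. Right, levels of 10 genes as CPM + 1 on a log axis in members with at least 3 Hhip UMIs and in those with fewer, 1 point per mouse (n = 4). Notch3 was at 29.9 to 62.2 CPM in the former and 319 to 419.6 CPM in the latter, and Hpse2 overlapped.

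The first comparison by genotype asked whether these cells were more or less frequent in lungs lacking Tubb3. Of the gated smooth muscle cells, the members made up 40.01% and 40.09% in the WT mice against 39.0% and 41.1% in the Tubb3-/- mice (40.05% ± 0.0552 against 40.04% ± 1.46, SD, n = 2 each; exact permutation test, two-sided, p = 1). Of all cells kept, they made up 9.72% and 6.81% against 8.41% and 9.04% (8.26% ± 2.06 against 8.72% ± 0.448; exact permutation test, p = 1). The groups overlapped in the second measure, and in the first the WT mice lay between the Tubb3-/- mice. The exact 95% intervals of the first 4 shares (Clopper-Pearson, counting error only) ran from 36.8% to 43.4%. With 2 mice against 2, this test cannot give a p under 0.3333.

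The share of Hhip-rich cells among the members was 14.5% and 15.1% in the WT mice against 25% and 23.8% in the Tubb3-/- mice. The means were 14.8% ± 0.452 and 24.4% ± 0.818 (SD, n = 2 each; exact permutation test, p = 0.3333, the smallest possible). The groups did not overlap. Thinned to 5000 UMIs per cell, the means were 12.9% and 19.5%, and in the mural cell-enriched libraries alone 14.7% and 24.0%. In the whole-cell libraries, with 35 to 55 members each, the shares were 7.27% and 25.7% in the WT mice against 31.4% and 30.4% in the Tubb3-/- mice. Thinned, these were 8.16% and 27.3% against 21.7% and 25%, and the genotypes overlapped (exact permutation test, p = 1). Leaving out each mouse in turn, the difference stayed between 9.02 and 10.2 percentage points. Over all members the level of Hhip had a log2 fold change of 0.33 (SE 0.18, edgeR adjusted p = 0.476). In the fibroblast gate the share was 30.5% and 25.7% in the WT mice against 34.7% and 38.5%. In the unassigned cells it was 24.6% and 15.2% against 28.7% and 27.2%, again without overlap. Thinned, the fibroblast gate did not overlap either (11.1% and 8.77% against 12.1% and 15.8%), but the unassigned cells did. In the Timp4 and Erbb4 sets the genotypes overlapped.

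Tubb3 itself checked the genotypes. Its UMIs in the members were 101 and 37 in the WT mice against 13 and 21 in the Tubb3-/- mice, which is 11.3, 7.07, 1.17 and 2.02 CPM. The 2 genotypes did not overlap, though Tubb3-/- members were not at 0. Of Cre, 1 UMI was counted in a Tubb3-/- mouse and none in the other 3. Over all kept cells the Tubb3 UMIs were 415 and 219 against 80 and 68, and the Cre UMIs 0 and 0 against 3 and 1. The fitted Tubb3 log2 fold change in the members was −2.58 (SE 0.382, adjusted p = 0.0661 by the edgeR quasi-likelihood test).

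Members of Tubb3-/- mice had more Igf1, Pappa2, Igfbp2, Fgf18 and S100b transcript, and less Taf4b, Akap12 and Gstm1. The UMIs of the members were summed per mouse and compared between genotypes with the edgeR quasi-likelihood test and Benjamini-Hochberg adjustment over 13935 genes, without the 19 genes of the rule. At an adjusted p under 0.05, 30 genes (0.215%) were called, 22 higher in Tubb3-/- mice (0.158%) and 8 lower (0.0574%). Values from here on are TMM-normalised CPM, which corrects for composition between mice, and fold changes are log2 of Tubb3-/- over WT with a standard error (SE) taken as the fold change over the root of F. Of all genes tested, 46.1% had genotypes that did not overlap, so a lack of overlap alone says little. The number of calls rested on single mice, being 23 without Tubb3-/- mouse 1, 209 without Tubb3-/- mouse 2, 543 without WT mouse 1 and 1164 without WT mouse 2. It was 200 by DESeq2, 12 in the mural cell-enriched and 9 in the whole-cell libraries alone, and 10 without the 1294 members that held a pericyte gate UMI, an alternative chosen after seeing the data.

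Igf1 was at 189 and 176 normalised CPM in the WT mice against 499 and 490 in the Tubb3-/- mice (log2 1.44, SE 0.102, edgeR adjusted p = 0.0193). Pappa2, the protease that frees insulin-like growth factors from their binding proteins, was at 84.3 and 63.6 against 300.3 and 266 (log2 1.93, SE 0.150, adjusted p = 0.0193). Igfbp2, such a binding protein, was at 13.9 and 9.69 against 38.8 and 52.9 (log2 1.93, SE 0.212, adjusted p = 0.0385). S100b, a small calcium-binding protein, rose from 13.2 and 12.5 to 58.3 and 44.4 (log2 2.00, adjusted p = 0.0193). Alkal1, a ligand of the ALK receptor, rose by log2 1.95 (adjusted p = 0.0479) from 7.11 and 4.10 to 23.8 and 21.2. Fgf18, a fibroblast growth factor, was at 24.6 and 17.5 against 57.5 and 58.5 (log2 1.44, adjusted p = 0.0354). P4ha3, a prolyl hydroxylase of collagen, was at 30.1 and 28.7 against 88.5 and 72.3 (log2 1.45, adjusted p = 0.0251), and Egfem1 at 48.3 and 49.6 against 128 and 178 (log2 1.65, adjusted p = 0.0316).

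The other genes that rose were Wnt5a (log2 1.36), Sema3c (1.31), Pde10a (1.09), Nrcam (1.06), Tgfbi (1.02), Wnt11, Scx, P2ry14, Adcy7, Rbfox1, C1qtnf6, Aard, Fxyd5 and Prkcq. Wnt5a and Wnt11 are Wnt ligands, Sema3c is a secreted guidance factor and Scx a transcription factor of tendon. The median over the 22 was 1.23.

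The 8 genes that fell had no common role in the fixed lists. Taf4b, a subunit of the general transcription factor TFIID, was at 60.0 and 49.6 normalised CPM in the WT mice against 20.1 and 21.5 in the Tubb3-/- mice (log2 −1.40, SE 0.127, adjusted p = 0.0251). Akap12, a scaffold for protein kinase A, was at 206 and 204 against 113 and 113 (log2 −0.86, adjusted p = 0.0320), and Gstm1, a glutathione transferase, at 322 and 359 against 195 and 197 (log2 −0.80, adjusted p = 0.0496). Gm26802 (−1.05), Sp4 (−1.05), Shisa9 (−0.95), Ppp1r10 (−0.69) and Pde4c (−2.63, from 6.76 and 5.96 to 1.00 and 1.03) completed the list.

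**Figure D4:**
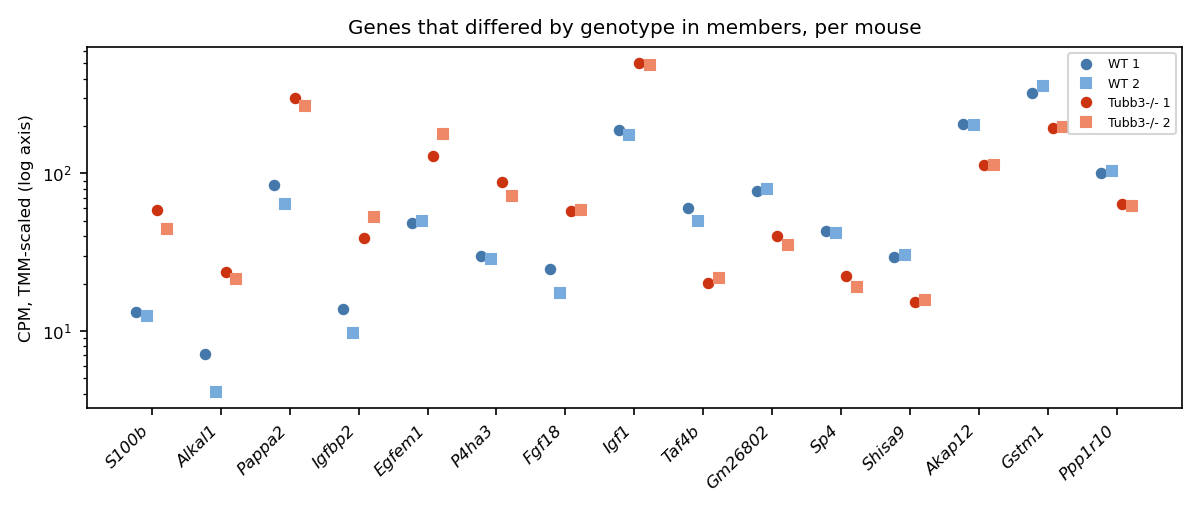
TMM-normalised CPM on a log axis of the 15 named genes that differed by genotype, in each of the 2 WT and 2 Tubb3-/- mice. Igf1 was at 176 to 189 in the WT mice and 490 to 499 in the Tubb3-/- mice, and the genotypes do not overlap in any gene plotted, which the naming rule required.

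The Hhip-rich share was 14.8% in the WT and 24.4% in the Tubb3-/- mice, and the called genes were compared between the 2 kinds of member. Of the 22 that rose, 18 were at least 2-fold higher in Hhip-rich than in Hhip-poor members, against 3.95% of the 13935 genes tested, and none was lower. Of the 8 that fell, 7 were lower in the Hhip-rich members, against 53.3% of all genes tested. The genotype test was therefore repeated inside each kind of member. In the Hhip-rich members, 188 of 11295 genes (1.66%) passed, 48 with more and 140 with less transcript in Tubb3-/- mice. All 22 and all 8 genes kept their direction, 16 of the 30 were called, and the median fold change of the 22 was 1.00 on the log2 scale. In the Hhip-poor members, 21 of the 22 and all 8 kept their direction, the median of the 22 was 0.64, and none of the 30 was called. Egfem1, with a log2 fold change of −0.23 there, was the exception. Pappa2 had a log2 fold change of 1.20 (SE 0.229, edgeR adjusted p = 0.0416) in the Hhip-rich members and 2.36 (SE 0.264, adjusted p = 0.108) in the Hhip-poor ones, and Igf1 1.13 (adjusted p = 0.0295) and 0.59 (adjusted p = 0.281). The 30 genes were called on the sum of these same cells, so the kept directions are partly fixed in advance. Whether the genotype effect differed between the 2 kinds of member was not tested.

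A single gene was called in the Hhip-poor members (0.00754% of 13268). It was Ccl2, a chemokine that attracts monocytes, with a log2 fold change of −2.002 (SE 0.149, edgeR adjusted p = 0.0251). Its call in this split was picked out after its value was seen, and 1214 genes had an unadjusted p under 0.05. Ccl2 is also among the 8 genes that the study named in vascular smooth muscle. There the paper reported its downregulation in Tubb3-/- mice. Over all members Ccl2 was at 114 and 72.5 normalised CPM in the WT mice against 67.2 and 23.7 in the Tubb3-/- mice (log2 −1.05, adjusted p = 0.338), where the groups also did not overlap.

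**Figure D5:**
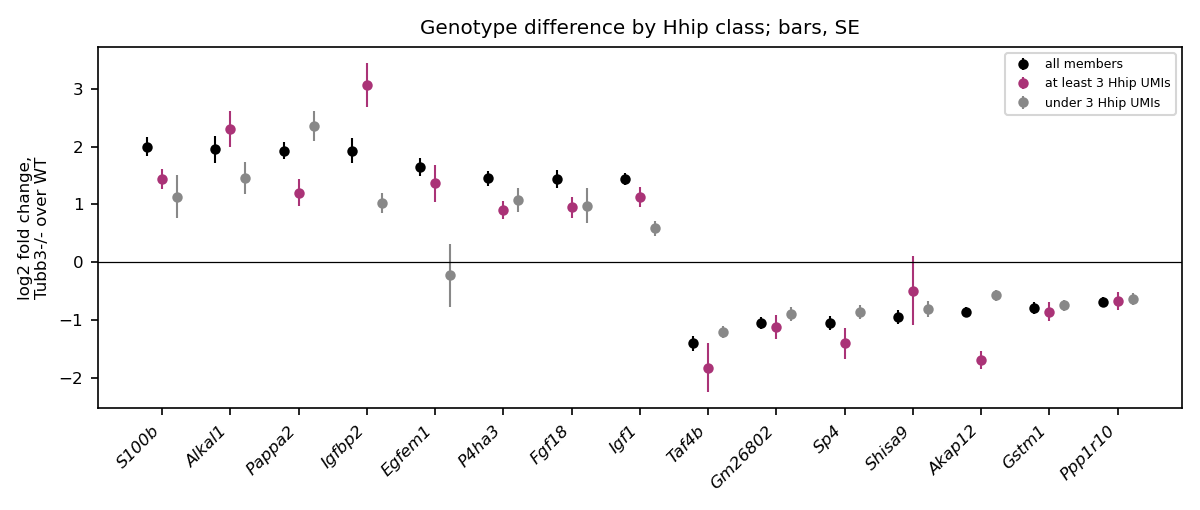
Log2 fold change of Tubb3-/- over WT mice with its standard error for the 15 named genes, fitted over all members, over members with at least 3 Hhip UMIs and over members with fewer. The genes that rose lie above 0 in all 3 fits except Egfem1, at −0.23 in the members with fewer than 3 Hhip UMIs.

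The 30 calls were also followed in each pool and in the other cells of the same 4 mice. In the whole-cell libraries alone 22 of 22 genes that rose and 7 of 7 that fell and could be fitted kept their direction. In the mural cell-enriched libraries it was 22 of 22 and 8 of 8. The calls came from the sum of these same libraries. Most member UMIs were from the mural cell-enriched ones (8374920 of 8939610 in WT mouse 1). Agreement there was thus nearly fixed in advance and is no separate evidence. In the Timp4 set, 16 of the 22 were higher in the pair of Tubb3-/- mice without overlap, against 24.8% of all genes there, and all 8 that fell were lower, against 16.9%. In the fibroblast gate it was 18 of 22 (26.4% of all genes) and 8 of 8 (23.4%). In the Erbb4 set it was 11 of 22 (20.1%) and 4 of 8 (20.4%), and in pericytes 5 of 22 (17.5%) and 3 of 8 (18%). Sema3c lay the other way without overlap in both of these, as did S100b and Rbfox1 in pericytes. Igf1, for example, had a log2 ratio of 1.05 in the Timp4 set, 1.15 in the Erbb4 set, 0.79 in the fibroblast gate and 0.17 in pericytes, the last with overlapping genotypes. Summed fibroblast markers in the members were 6659 and 7323 CPM in the WT mice against 9770 and 10144 CPM in the Tubb3-/- mice, and summed pericyte markers were 985 to 1240 CPM against 1505 to 1506 CPM. The part that these play in the genotype calls was not tested.

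Of the fixed lists, only cyclic nucleotide signalling had a called gene by genotype, 1 of 15 (Pde10a). For other lists the counts at an unadjusted p under 0.05 and the DESeq2 calls are given, against 14.4% and 1.46% of all genes. The immediate-early and stress list had 12 of 15 genes at p under 0.05, all with lower values in Tubb3-/- mice, 6 called by DESeq2 and a median log2 fold change of −0.51 against 0.01 over all genes, and its lowest edgeR adjusted p was 0.0903. The fibrotic fibroblast list had 4 of 9 genes at p under 0.05, all with higher values, 2 called by DESeq2 and a median of 0.83. Postn, the matrix protein periostin, was at 446 and 395 normalised CPM in the WT mice against 798 and 704 in the Tubb3-/- mice (log2 0.84, edgeR adjusted p = 0.0661). Lum, the proteoglycan lumican of the fibroblast list, was at 140 and 86.3 against 351 and 310 (log2 1.54, adjusted p = 0.0568). The extracellular matrix list had 13 of 31 genes at p under 0.05, 11 of them higher, and DESeq2 called 7. The fibroblast list had 8 of 12, 6 of them higher, with 4 called by DESeq2 and a median of 0.30, and the proliferation list 3 of 6, all higher, with 1 called and a median of 1.10. The erythroid list had 4 of 4, all lower, with none called by DESeq2 and a median of −5.01, its sum being 50.9 and 1848 CPM in the WT mice against 20.9 to 21.6 CPM in the Tubb3-/- mice. The contractile list had 5 of 21, all lower, with none called by DESeq2 and a median of −0.17. The heparan sulfate list had 6 of 25, and none was called by DESeq2, the neurotrophin list 3 of 10 with 1 called, and the cadherin and catenin list 4 of 11 with none called. Ion channels had 9 of 27 with none called, receptors 8 of 31 with 3, Notch 3 of 9 with none, BMP and TGF-beta 8 of 24 with 1, interferon response 3 of 16 with 1, synaptic adhesion 5 of 12 with 1, and smooth muscle regulators 5 of 19 with none. The airway list had 2 of 8 with 1 called, the vascular list 3 of 12 with none, the pericyte list 1 of 7 with 1, the epithelial list 2 of 7 with none, the immune list 1 of 6 with none, the mesothelial list 1 of 4 with none, and the endothelial, cardiac and Schwann cell lists none.

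The study named 8 genes in vascular smooth muscle, and the edgeR test called none of them in these members. Of the 8, 4 had an unadjusted p under 0.05 (14.4% of all genes) and 2 were called by DESeq2 (1.46%). The 8 include Tubb3, the deleted gene itself, which is 1 of those 4 and had the lowest edgeR adjusted p of the list (0.0661). In addition, Klf4 is also in the immediate-early list. Klf4, a factor of smooth muscle dedifferentiation, was at 490 and 320 normalised CPM in the WT mice against 302 and 204 in the Tubb3-/- mice (log2 −0.68, edgeR adjusted p = 0.275). Col1a1 had a log2 fold change of 0.65 (adjusted p = 0.175), Acta2 −0.21 (0.676), Fn1 0.24 (0.447), Bmpr2 −0.17 (0.548) and Foxm1 0.32 (0.880). The values of Ccl2, also among the 8, are given above with its call in the Hhip-poor members. The genes of the rule were fitted without an adjusted p, with Hpse2 at −0.01, Ntrk3 at −0.26 and Ctnna3 at −0.41.

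The last comparison asked how the members of the mural cell-enriched pool differed from those of the whole-cell pool of the same mice. They made up 1.32% ± 0.213 of the kept cells in the whole-cell libraries and 14.6% ± 1.98 in the mural cell-enriched ones (SD, n = 4 mice), 10.3 to 12 times as large and higher in 4 of 4 mice (exact paired permutation test, two-sided, p = 0.13, the smallest possible). Of the gated smooth muscle cells, they made up 45.3% ± 9.75 and 39.8% ± 0.582 (exact paired permutation test, p = 0.5). There was 1 pool of each kind, so sort, pool and sequencing lane cannot be told apart.

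With the mouse as a block, edgeR called 230 of 11414 genes (2.02%) between the pools, 170 higher in the mural cell-enriched pool (1.49%) and 60 lower (0.526%). Contractile genes were not among them, with 0 of 21 called, 2 at an unadjusted p under 0.05 and none called by DESeq2. The calls included many markers of other cell types. Scgb1a1, the secretory protein of club cells, was at 737, 588, 606 and 519 normalised CPM in the whole-cell libraries and 59.4 to 65.1 in the mural cell-enriched ones (log2 −3.28, edgeR adjusted p = 4.67e-10). Chil3, a macrophage chitinase-like protein, had a mean of 95 against 1.21 (log2 −6.18), and S100a9, a neutrophil calcium-binding protein, 20.9 against 0.185 (log2 −7.11). All 5 immune markers tested were lower in the mural cell-enriched pool. Their 6-gene sum was 436 to 527 CPM in the whole-cell libraries and 79.6 to 123 CPM in the mural cell-enriched ones, without overlap. The part that RNA of other cells plays in these calls was not tested.

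Higher in the mural cell-enriched pool were the complement gene C7 (3.63 against 110 normalised CPM, log2 5.09, edgeR adjusted p = 8.8e-07), the matrix protease Mmp3 (7.26 against 126, log2 4.003, adjusted p = 3.92e-08), the mesothelial gene Msln (5.10 against 82.6, log2 3.93), the chemokine Cxcl14 (8.08 against 117, log2 3.78), and Grip1 and Sdk1 (log2 4.29 and 3.91). Of 12 fibroblast markers 5 were higher and none lower, among them Pdgfra, whose protein the sort used (log2 2.18, adjusted p = 0.000263), and of 3 mesothelial markers 2 were higher, with the sum of the 4-gene mesothelial list at 1.29 to 35.2 CPM in the whole-cell libraries and 51.2 to 257 CPM in the others. All 3 erythroid genes tested were higher, with the list at 6.43 to 20.5 CPM against 20.9 to 1987 CPM. The alpha-globin Hba-a2 rested on 1 library, WT mouse 2, at 263 normalised CPM in the mural cell-enriched pool, while the other 3 were at 4.03 to 6.32, and without the mouse block its call was lost (edgeR adjusted p = 0.689). Without the block 95 genes were called in all.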

How the data were processed

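Single cells of 8 libraries (10x Genomics 3′ v3.1 with CellPlex tags) were measured. The authors deposited raw UMI counts per gene and cell, made with Cell Ranger 7.1.0 (mm10 plus the Cre gene). Whether introns or strand were used, and the annotation, are not given in the sources used here. Each GEO sample pools 4 mice, so a library was assigned to its mouse by its leading tag, which led in 99.86% to 100% of cells, and by the tag list in the labels. Tag counts (26.2% to 36.4% of UMIs) were set aside. The study's limits of 200 to 7500 genes and 15% mitochondrial UMIs were applied, and doublets were kept but marked with Scrublet (scanpy 1.11.5). The 8 libraries held 41462258 to 95036340 gene UMIs, with a median of 9186 to 16299 per cell, and precision was set mainly by 2 mice per genotype. Replicates differed by more than counting noise (chi-square per gene 8.24 in WT and 5.98 in Tubb3-/- mice).

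UMIs of the members were summed per mouse (genotype) or library (pool, with the mouse as a block) and tested with edgeR 4.0.16 (R 4.3.3, filterByExpr, TMM, quasi-likelihood, Benjamini-Hochberg), with DESeq2 1.42.0 as an alternative. The 19 genes of the rule were left out of the adjustment. On simulated counts the genotype fit recovered 60% of genes changed by 1 and 88.5% of those changed by 2 on the log2 scale, of 200 among 13951 genes, with 11.1% and 11.9% of calls false. The pool fit recovered 56% with 3.45% false (11430 genes). Shares were compared with exact permutation tests. Levels between sets used CPM + 1 and no test. Named genes were the rule genes, the 10 highest and 5 lowest median ratios against each set (same sign in 4 mice, at least 50 CPM in the higher set), up to 8 called genes per direction by fold change with at least 20 CPM and no overlap, list members, Tubb3 and Cre, and the genes most like Hpse2. Other called genes were named after their values were seen. The members, gene lists and tests were chosen with earlier results of these data known. Some genes that the naming rule selects are not reported here.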

Additional observations from a re-analysis of the deposited data

Results flagged for a closer look

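In 5 of 36 groups of 4 libraries a single library stood apart by Dixon's criterion, the gap to its nearest neighbour over the range of the group, where chance gives about 1 in 20. All 5 were genes that differed between the pools. Slurp1 had a gap ratio of 1 in the whole-cell libraries, where 1 library was at 1.32 normalised CPM and the other 3 at 0. Hba-a2 had a gap ratio of 0.991 in the mural cell-enriched libraries, with WT mouse 2 at 263 normalised CPM and the others at 4.03 to 6.32. Chil3 had a gap ratio of 0.936 there, with Tubb3-/- mouse 2 at 2.33 and the others at 0.786 to 0.885, against a mean of 95 in the whole-cell libraries. Srgn, a proteoglycan of blood cells, had a gap ratio of 0.844 in the whole-cell libraries, with Tubb3-/- mouse 2 at 48.3 and the others at 34.4 to 36.6. Cxcl14 had a gap ratio of 0.8293 in the mural cell-enriched libraries, with WT mouse 2 at 187 and the others at 86.1 to 103.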

How the results depend on the processing

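The 30 genes called by genotype became 366 with no filter on low counts, 200 by DESeq2 (93 higher, 107 lower), 68 with an Hpse2 sum of at least 5, 50 with at most 10% mitochondrial UMIs, 33 with RLE size factors and 31 without Scrublet doublets, and 23 to 1164 when 1 mouse was left out. It was 9 in the whole-cell libraries alone and 12 in the mural cell-enriched ones. Among alternatives chosen after seeing the data it was 10 without members holding a pericyte gate UMI, 188 in members with at least 3 Hhip UMIs and 1 in those with fewer. With the replicate number as a block, 674 genes were called (245 higher, 429 lower), all 30 among them. The labels do not say that equal numbers mark a litter or batch. Deviations from the genotype mean correlated at 0.387 between same-numbered mice and at −0.387 between crossed mice, over 6657 genes. Within a genotype the deviations of the pair of mice mirror each other, so this is a single value. It cannot show whether same-numbered mice belong together. Egfem1 reversed in members with fewer than 3 Hhip UMIs (log2 −0.23).

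The 230 genes called between pools became 465 with no filter, 95 with no replicate block, 143 without Scrublet doublets, 152 in members with at least 3 Hhip UMIs, 210 by DESeq2 (117 higher, 93 lower) and 161 to 182 without 1 mouse. DESeq2 moved the median of all genes to −0.14 and no filter to 0.15 on the log2 scale. The genotype difference in the share of gated cells (−0.00986 percentage points) became 2.59 in whole-cell libraries, 0.459 with at least 1 Myh11 UMI, 0.366 at 10% mitochondrial UMIs, 0.665 without doublets and −1.04 to 1.02 without 1 mouse. Of all cells kept it was 0.462, and −0.0928 in whole-cell libraries, −0.286 thinned to 5000 UMIs, −0.220 without members holding a pericyte gate UMI and −0.993 to 1.92 without 1 mouse. In whole-cell libraries alone, 604 genes were higher and 124 lower than in the Erbb4 set (379 and 201 over both pools). The cause of these changes was not tested. The pool difference in the share of kept cells stayed positive, at 6.87 to 15.8 percentage points over redefined members, 12.6 to 14.1 without 1 mouse, and 2.53 and 10.7 for members with at least 3 and under 3 Hhip UMIs.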
